A study of Mus musculus with 12 samples.

Results

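Regulatory T cells (Treg) were set against conventional CD4 T cells (Tconv) from mice labelled Dcaf1-deficient, to see which differences of Treg identity were present in cells of that label. The members were chosen by sample title, and they are 4 of the 12 libraries of the series: 2 Treg and 2 Tconv libraries. All 4 came from the spleens of C57BL/6 mice of 2 months; Treg had been sorted by flow cytometry as CD4+CD25+ cells and Tconv as CD4+ cells, and poly(A) RNA was sequenced. They are called labelled Treg and labelled Tconv here. The same cell types from wild-type (WT) C57BL/6 mice of 2 months, called young Treg and young Tconv, gave 2 libraries each and are used for comparison; the other 4 libraries came from aged WT mice and entered the fit. Which cells lost Dcaf1 and by what driver is not given in the sources used here, nor whether each library came from its own mouse. The p-values therefore measure spread between libraries, pooled over the 12 fitted, and that spread may be technical.

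Treg keep other immune cells in check. Their fate depends on the transcription factor Foxp3, which together with the Ikaros-family factors Helios (Ikzf2) and Eos (Ikzf4) maintains a distinct transcriptional program. They display the high-affinity interleukin 2 receptor, whose alpha chain is CD25 (Il2ra), and the inhibitory receptor Ctla4, and they take up interleukin 2 that they hardly make themselves. Tconv retain a helper program, with CD40 ligand among its surface signals. DCAF1 is a substrate receptor of the CUL4-DDB1 ubiquitin ligase.

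The tables hold Dcaf1 under its older symbol Vprbp. It had 102 and 101 CPM in labelled Treg, against 132 and 132 CPM in labelled Tconv, a log2 difference of -0.38 ± 0.14 (SE) (edgeR adjusted p = 0.151) that turned to 0.87 when libraries were scaled on T cell genes. Young libraries had 144 and 128 CPM in young Treg, against 147 and 144 CPM in young Tconv. Of these 8 libraries labelled Treg had the lowest values, but the Vprbp transcript was present in all 8. WT aged Tconv 2 was lower still, at 90.5 CPM. Counts per whole gene do not show whether part of the gene is missing, so they do not check the label. Rpl29, a ribosomal protein gene on the same chromosome, at chr9:106429454-106431568 against chr9:106821874-106880992 for Dcaf1 (GENCODE M21, mm10), was singled out after its values were seen. It had 34.04 and 31.5 CPM in labelled Treg, against 42.98 and 37.9 CPM in labelled Tconv, and 744 and 717 CPM in young Treg, against 836 and 845 CPM in young Tconv. All 4 labelled libraries were thus far below the 4 young ones, in both cell types. WT aged Treg had 92.7 and 438 CPM of Rpl29, against 606 and 495 CPM in aged Tconv. The 92.7 CPM came from aged Treg 1, so a value this low outside the label rests on 1 library. That library was near labelled Treg 1 in Axl (1293 and 1432 CPM), Il2ra (763 and 774 CPM) and Y-linked Ddx3y (204 and 187 CPM). It was not near in Nt5e (160 and 77.2 CPM). Aged Treg 2 had 713 CPM of Axl, 969 CPM of Il2ra and 0.460 CPM of Ddx3y. The reason was not tested.

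Levels are in CPM, the deposited estimated counts brought to a common library size with edgeR's TMM factors. Library totals were 26852448 and 22869637 in labelled Treg and 20660563 and 20861562 in labelled Tconv, within the 18358477 to 26852448 of the series. The labelled Tconv libraries were the closest pair in the series, with 33.2% of 7586 genes past sampling noise (chi-square above 3.84), against 52.5% of 8091 genes in labelled Treg. They were counted as separate libraries by their titles. These shares cannot show whether the libraries came from separate mice, because technical spread can also pass sampling noise. Labelled Treg 1 had 187 CPM of the Y-linked gene Ddx3y, and labelled Treg 2 0.588 CPM; the labelled Tconv libraries had 0.146 and 0.338 CPM. Equal numbers in the titles therefore do not mark the same mouse in every case. Ddx3y was high in all young libraries, with 311 and 197 CPM in young Treg, against 330 and 240 CPM in young Tconv. Most labelled libraries lacked it, so in comparisons of labelled with young libraries the label and sex cannot be fully told apart. Both labelled Treg titles carry the tag L4 and both labelled Tconv titles the tag L5, so in these 4 libraries the cell type and what the tag stands for cannot be told apart.

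Transcripts of other spleen cells were higher in labelled Treg than in labelled Tconv, and transcripts shared by T cells were lower. The 14 tested macrophage markers summed to 15084 and 18711 CPM in labelled Treg, against 1281 and 1363 CPM in labelled Tconv, and to 253 and 5209.8 CPM in young Treg, against 32.1 and 344 CPM in young Tconv. The 10 tested B cell markers summed to 3007 and 3099 CPM in labelled Treg, against 431 and 444 CPM in labelled Tconv, and to 174 and 3276 CPM in young Treg, against 91.7 and 298 CPM in young Tconv. Both labelled Treg libraries were high for both lists, and young Treg 2 stood far above young Treg 1. Among WT aged libraries, aged Treg 1 was high too, with 12878 CPM of macrophage and 2572 CPM of B cell markers. Aged Treg 2 had 1364 and 203 CPM of them. Aged Treg 1 is the library set beside labelled Treg 1 above. The 11 erythroid markers summed to 5417 and 12239 CPM in labelled Treg, against 1533 and 1529.5 CPM in labelled Tconv, and to 84.3 and 1627 CPM in young Treg, against 20.1 and 131 CPM in young Tconv. The 9 neutrophil markers, of which 8 were tested, summed to 296 and 586 CPM in labelled Treg, against 49.8 and 54.4 CPM in labelled Tconv. The 4 plasma cell markers summed to 923 and 1579 CPM in labelled Treg, against 393 and 422 CPM in labelled Tconv. Labelled Treg 2 was above labelled Treg 1 in each of these 3 sums. Dendritic cell and monocyte markers went the other way, with 374 and 499 CPM in labelled Treg, against 717 and 715 CPM in labelled Tconv over 9 genes and a median log2 difference of -0.97, which was 0.28 under scaling on T cell genes. CD8 and natural killer cell markers summed to 85.4 and 121 CPM in labelled Treg, against 176 and 195 CPM in labelled Tconv over 4 genes.

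Of 77 tested markers of other cell types, 63 had a higher mean in labelled Treg, and 14 had an unadjusted p under 0.05. At an edgeR adjusted p under 0.05, 0 were called higher and 1 lower. That gene, Ccr9, a chemokine receptor listed here with dendritic cell genes, had 10.1 and 20.5 CPM in labelled Treg, against 72.8 and 79.5 CPM in labelled Tconv, a log2 difference of -2.31 ± 0.41 (SE) (edgeR adjusted p = 0.0401). In the whole comparison 2.22% of tested genes were called, 0.874% higher and 1.35% lower. The median log2 difference was 3.71 over macrophage markers, 3.24 over B cell markers, 3.02 over neutrophil markers, 2.62 over erythroid markers, 2.45 over 6 stromal markers, 1.84 over 7 pancreatic enzyme genes, 1.39 over plasma cell markers and -0.01 over 4 platelet markers, beside 0.02 over all 9495 tested genes. Axl, a macrophage receptor for dying cells, shows the size: it had 1432 and 1700.0 CPM in labelled Treg, against 136 and 133 CPM in labelled Tconv. Cd79b, a subunit of the B cell receptor, had 585 and 573 CPM in labelled Treg, against 60.4 and 66.9 CPM in labelled Tconv. No tested defining marker of macrophages, B cells or erythroid cells was at 0 in a labelled library.

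The 15 tested genes of a list of 20 pan-T genes, those expressed by T cells at large, summed to 4199 and 3764 CPM in labelled Treg, against 9799 and 9695 CPM in labelled Tconv, and to 8694 and 5896 CPM in young Treg, against 10434 and 9778 CPM in young Tconv. All 15 had lower means in labelled Treg, with groups that did not overlap, beside 37.5% of all tested genes apart in that direction. The median log2 difference of the 15 pan-T genes was -1.26, against -0.38 in the young pair. Scaling libraries on these genes (the pan-T scale) moved the median of all 9495 genes by 1.25, to 1.26, so that list medians a little below 0 turned positive. At the edgeR threshold on the TMM scale 3 of the 15 fell, beside 1.35% of all tested genes. The 3 include Cd4 and Thy1, whose values follow with the T cell genes. In bulk libraries, fewer T cells and less of a transcript per T cell cannot be told apart. The part of other-cell RNA in the results that follow was not tested; values relative to the pan-T genes are given beside the identity genes, and the plot of summed markers shows the levels behind them.

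**Figure D1:**
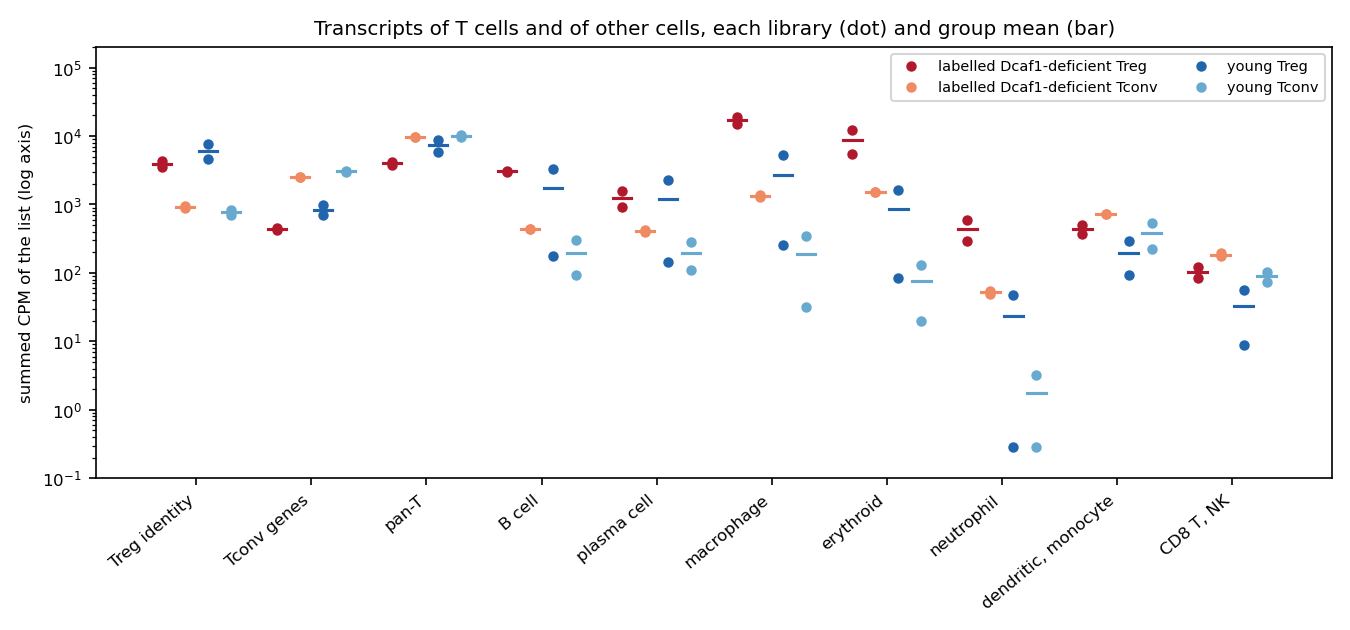
Summed CPM of marker lists (log axis) in each of the 8 libraries, with the 2 libraries of a group as points and their mean as a bar. Macrophage, B cell, erythroid and neutrophil sums are higher in both labelled Treg libraries than in both labelled Tconv libraries, while the pan-T sum is lower.

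Between labelled Treg and labelled Tconv, edgeR's quasi-likelihood test over 12 libraries called 211 of 9495 genes at an adjusted p under 0.05, of which 83 rose and 128 fell in Treg. Unadjusted p was under 0.05 for 2356 genes. The count rests on all 4 libraries: with any one of them left out, 2 or 3 genes were called, and Cd40lg was among them each time. It was 12 with a term for the title tag and 18 with terms for the mean log2 CPM of the B cell and macrophage markers. Those 2 marker terms were an alternative chosen after seeing the data. The count was 1444 with DESeq2 and 4712 in a fit of the 4 libraries alone. In the young pair 76 genes (0.800%) were called, 47 higher (0.495%) and 29 lower (0.305%) in Treg.

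Foxp3 (chrX:7573644-7595245, plus strand, GENCODE M21) had 625 and 535 CPM in labelled Treg, against 80.8 and 75.6 CPM in labelled Tconv. Both labelled Treg libraries were far above both labelled Tconv libraries, and the groups did not overlap. The log2 difference was 2.89 ± 0.55 (SE) (edgeR adjusted p = 0.0461), and the call was lost without any one of the 4 libraries, with the title tag term (edgeR adjusted p = 0.0649) and with the B cell and macrophage terms (edgeR adjusted p = 0.0804). Over the 17 alternatives its log2 difference stayed between 2.04 and 4.14, with adjusted p from 4.58e-07 to 0.308, and 11 kept the call. Foxp3 had 1428 and 812 CPM in young Treg, against 47.7 and 78.4 CPM in young Tconv.

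Il2ra (chr2:11642807-11693193, plus strand) had 774 and 576 CPM in labelled Treg, against 49.2 and 48.7 CPM in labelled Tconv, a log2 difference of 3.79 ± 0.39 (SE) (edgeR adjusted p = 0.0112). Its product CD25 was the marker on which Treg were sorted, so this difference checks the sort and is no finding; the call was lost without any one of the 4 libraries (adjusted p 0.0546 to 0.158). Il2ra had 1337 and 887 CPM in young Treg, against 31.8 and 63.2 CPM in young Tconv. Foxp3 and Il2ra were the 2 called genes of the 15 tested members of a 24-gene Treg identity list. Beside them, 0.874% of all tested genes were called higher. In the list 13 had an unadjusted p under 0.05. All 15 had a higher mean in labelled Treg and in 14 the libraries of the groups did not overlap, beside 39.5% of all tested genes that were apart in that direction. The median log2 difference was 1.95 over the list, against 3.06 in the young pair, where 5 of the 15 were called.

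The promoters of the 2 called identity genes, of Tnfrsf8, the called gene with an equally large rise, and of Themis, a called gene that fell, are shown as the start regions of the genes on which the comparison turns. The sequences are from RefSeq (GRCm38.p6), read on the gene's strand and covering 250 bases before to 50 after the start, and 74 of 96 named genes had an entry. Capitals mark matches to 5 motifs searched on both strands: a STAT motif (TTCNNNGAA), a forkhead motif (TGTTTNC), a TCF/LEF motif (CTTTGAA), an AP-1 motif (TGANTCA) and a TATA box (TATAAA).
Foxp3, chrX:7579426-7579725, plus strand: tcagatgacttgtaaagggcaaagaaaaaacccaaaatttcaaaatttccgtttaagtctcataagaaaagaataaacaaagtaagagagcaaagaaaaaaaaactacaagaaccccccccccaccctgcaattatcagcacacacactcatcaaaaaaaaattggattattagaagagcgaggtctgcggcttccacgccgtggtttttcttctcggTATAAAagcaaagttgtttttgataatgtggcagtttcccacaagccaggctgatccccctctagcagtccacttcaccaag
Il2ra, chr2:11642542-11642841, plus strand: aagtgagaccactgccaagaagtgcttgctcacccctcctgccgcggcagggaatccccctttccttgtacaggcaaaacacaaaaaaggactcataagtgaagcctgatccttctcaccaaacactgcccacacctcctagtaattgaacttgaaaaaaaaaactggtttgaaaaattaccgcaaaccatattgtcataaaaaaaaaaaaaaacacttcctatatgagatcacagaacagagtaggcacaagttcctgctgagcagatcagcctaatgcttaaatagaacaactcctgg
Tnfrsf8, chr4:145315115-145315414, minus strand: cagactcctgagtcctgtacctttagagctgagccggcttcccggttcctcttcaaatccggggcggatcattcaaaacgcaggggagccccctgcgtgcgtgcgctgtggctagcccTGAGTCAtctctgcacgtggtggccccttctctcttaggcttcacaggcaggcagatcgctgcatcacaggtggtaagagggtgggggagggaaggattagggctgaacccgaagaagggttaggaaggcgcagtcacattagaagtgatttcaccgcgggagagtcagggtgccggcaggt
Themis, chr10:28668110-28668409, plus strand: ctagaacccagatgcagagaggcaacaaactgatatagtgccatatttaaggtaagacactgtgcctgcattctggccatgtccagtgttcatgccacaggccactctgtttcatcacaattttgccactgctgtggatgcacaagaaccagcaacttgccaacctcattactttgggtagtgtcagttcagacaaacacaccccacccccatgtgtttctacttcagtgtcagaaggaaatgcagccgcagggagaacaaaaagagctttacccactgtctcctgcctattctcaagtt
Of 32851 promoters of this length, 8.30% held the STAT, 20.5% the forkhead, 5.14% the TCF/LEF, 7.81% the AP-1 and 13.6% the TATA letters. The Foxp3 window held TATAAA at -32 to -27 from the start and the Tnfrsf8 window TGAGTCA at -132 to -126; no match overlapped another. The Il2ra and Themis windows held none of the 5, which says only that these letters are not in them. The table has 2 starts each for Foxp3 and Themis, and the upstream one is shown; for Foxp3 it lies inside the GENCODE M21 gene span given above, downstream of that span's first base.

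The other transcription factors of the list were also higher in labelled Treg without passing the edgeR threshold. Ikzf2, encoding Helios, had 461 and 435 CPM in labelled Treg, against 127 and 119 CPM in labelled Tconv. The Treg libraries were the high ones and close together, with a log2 difference of 1.86 ± 0.48 (SE) and an edgeR adjusted p of 0.0788. Ikzf4, encoding Eos, had 80.4 and 75.1 CPM in labelled Treg, against 20.6 and 16.7 CPM in labelled Tconv, a log2 difference of 2.06 ± 0.51 (SE) (edgeR adjusted p = 0.0733). Plagl1, a zinc finger factor, had 4.47 and 5.54 CPM in labelled Treg, against 1.56 and 1.01 CPM in labelled Tconv (log2 difference 1.95, edgeR adjusted p = 0.11). Young Treg had more of all 3: 1267 and 671 CPM of Ikzf2, 182 and 110.0 CPM of Ikzf4 and 38.3 and 18.3 CPM of Plagl1.

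**Figure D2:**
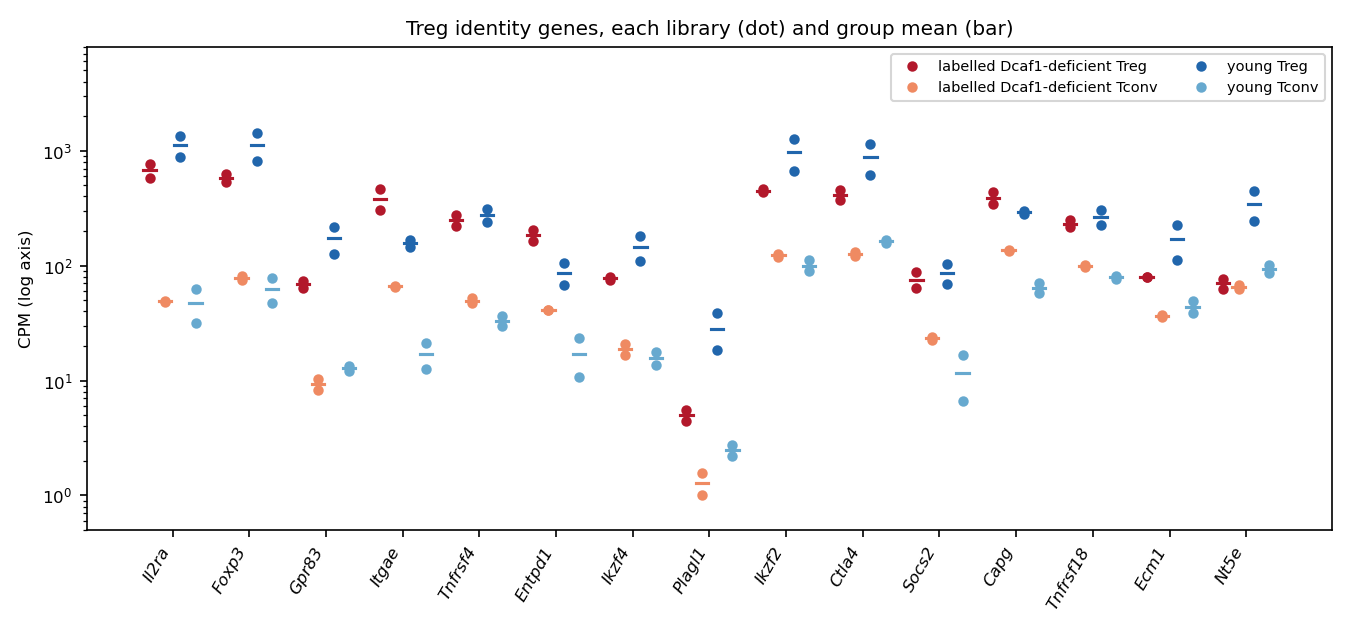
CPM (log axis) of the Treg identity genes in the labelled Treg, labelled Tconv, young Treg and young Tconv libraries (2 points per group; bar, group mean). Labelled Treg lie above labelled Tconv for 14 of 15 genes; the exception is Nt5e, whose labelled groups overlap.

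Among surface receptors, Ctla4, which removes costimulatory ligands from antigen-presenting cells, had 456 and 372 CPM in labelled Treg, against 130.3 and 120.3 CPM in labelled Tconv (log2 difference 1.73, edgeR adjusted p = 0.121). Tnfrsf4, encoding OX40, had 274 and 222 CPM in labelled Treg, against 51.8 and 47.2 CPM in labelled Tconv (log2 difference 2.33, edgeR adjusted p = 0.0887). Tnfrsf18, encoding GITR, had 249 and 215 CPM in labelled Treg, against 101 and 96.5 CPM in labelled Tconv (log2 difference 1.23, edgeR adjusted p = 0.165). For each of these 3 genes both Treg libraries were the high ones. Gpr83, a G protein-coupled receptor, had 73.1 and 64.5 CPM in labelled Treg, against 8.29 and 10.3 CPM in labelled Tconv (log2 difference 2.89, edgeR adjusted p = 0.145). Itgae, the alpha E integrin chain CD103 of tissue-homing T cells, had 461 and 305 CPM in labelled Treg, against 65.6 and 66.5 CPM in labelled Tconv, a log2 difference of 2.54 ± 0.61 (SE) (edgeR adjusted p = 0.0689). Itgae, like Entpd1 and Capg, was higher in both labelled Treg libraries than in both young Treg libraries, which had 167 and 146 CPM of Itgae.

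The ectoenzymes CD39 and CD73, which act in turn to make adenosine from extracellular ATP, had unlike values. Entpd1 (CD39) had 163 and 206 CPM in labelled Treg, against 41.03 and 40.9 CPM in labelled Tconv, a log2 difference of 2.17 ± 0.47 (SE) (edgeR adjusted p = 0.0574). In young Treg it had 67.3 and 106 CPM, higher in young Treg 2, where macrophage and B cell sums were higher too. In aged Treg it had 157 and 169 CPM, lower in aged Treg 1, where those sums were higher. The part of other cells in Entpd1 was not tested. Nt5e (CD73) had 77.2 and 63.1 CPM in labelled Treg, against 67.7 and 62.8 CPM in labelled Tconv, a log2 difference of 0.10 ± 0.70 (SE) with a 95% interval of -1.5001 to 1.71 (edgeR adjusted p = 0.935). The labelled groups overlapped for Nt5e alone in the list, while the young groups, with 445 and 245 CPM in young Treg, against 102 and 86.7 CPM in young Tconv, did not. The difference of the 2 Nt5e contrasts was -1.77 ± 0.99 (SE), labelled minus young, with an interval of -4.05 to 0.52 and an edgeR adjusted p of 1.

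The 3 remaining members have intracellular or secreted products. Socs2, a STAT5-induced inhibitor of cytokine signalling, had 87.2 and 64.3 CPM in labelled Treg, against 24.1 and 22.4 CPM in labelled Tconv (log2 difference 1.70, edgeR adjusted p = 0.0716). Capg, an actin-capping protein gene that macrophages also express, had 435 and 343 CPM in labelled Treg, against 138 and 133 CPM in labelled Tconv (log2 difference 1.52, edgeR adjusted p = 0.116). Ecm1, encoding a secreted matrix protein, had 79.1 and 79.8 CPM in labelled Treg, against 37.2 and 35.7 CPM in labelled Tconv (log2 difference 1.12, edgeR adjusted p = 0.239). Both Treg libraries were above both Tconv libraries in all 3.

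Read against the pan-T genes, the identity genes were high in the Treg of both pairs. Minus the pan-T median of each contrast, the median log2 difference of the list was 3.21 in the labelled and 3.44 in the young pair, and all 15 genes were above the pan-T median in both. By library, the list's mean log2 CPM minus the pan-T mean was -0.04 and -0.14 in labelled Treg, against -3.17 and -3.25 in labelled Tconv, and -0.46 and -0.42 in young Treg, against -3.98 and -3.49 in young Tconv. The difference between cell types on this scale was 3.13 in the labelled and 3.29 in the young pair. Foxp3 stood 4.15 above the pan-T median in the labelled and 4.53 in the young pair, Ikzf2 3.12 and 3.66, Ctla4 2.98 and 2.82, Entpd1 3.43 and 2.73, and Nt5e 1.36 and 2.25. These are descriptions on a scale that rests on 15 genes, with no test.

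On the TMM scale all 15 log2 differences were smaller in the labelled than in the young pair, with a median gap of -0.83, but 0 of the 15 gaps were called by edgeR, and 0 of all 9495 genes (0%). The 15 pan-T genes had a like gap, with a median of -0.85 and all 15 below 0. So the identity gap on this scale is not particular to identity genes. Relative to the pan-T median, the identity genes named above went both ways between the pairs. Unadjusted p for the gap was under 0.05 for 260 genes; DESeq2 called 1 gene and limma 0. For Foxp3 the gap was -1.26 ± 0.73 (SE), with a 95% interval of -2.95 to 0.43. For Il2ra it was -0.76 ± 0.50 (SE), with an interval of -1.92 to 0.39. The interval for Ikzf2, with a gap of -1.41 ± 0.66 (SE), was -2.94 to 0.11. Each of these 3 intervals includes 0 and also large gaps, so the comparison does not show that the pairs are alike.

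**Figure D3:**
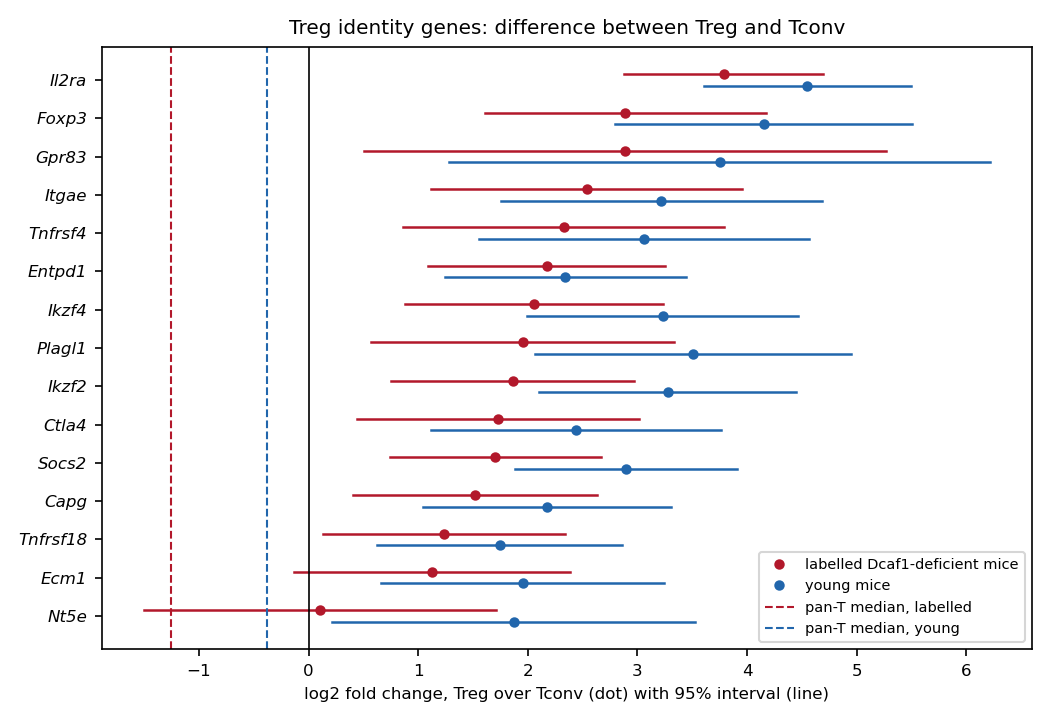
Log2 difference Treg minus Tconv of each tested Treg identity gene in the labelled pair and the young pair, with 95% intervals from edgeR. Dashed lines give the pan-T median of each pair. Each labelled point lies left of its young point, and the intervals overlap; Nt5e has the labelled point nearest 0.

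Genes of the conventional program were lower in labelled Treg. A list of 16 genes higher in Tconv had 13 tested members, of which 7 fell and 12 had lower means. Its median was -2.49, against -2.45 in the young pair, where 8 were called lower. On the pan-T scale its labelled median was -1.25, with 1 called higher and 5 lower, beside 6462 and 41 of all 9495 genes. In 12 of the 13 the labelled Treg libraries lay below the labelled Tconv libraries without overlap, beside 37.5% of all tested genes. The 7 falls stand beside 1.35% of all tested genes called lower. Part of that list was drawn from the young comparison of these data, so its direction in the young pair is no independent evidence. Cd40lg (chrX:57212143-57224042, plus strand), encoding the ligand by which helper T cells license B cells and dendritic cells, had 17.7 and 15.8 CPM in labelled Treg, against 209 and 203 CPM in labelled Tconv. Both Treg libraries were low and the groups were far apart, with a log2 difference of -3.62 ± 0.21 (SE) (edgeR adjusted p = 0.00111). Cd40lg was past the threshold in each of the 17 alternatives. It had 50.1 and 37.8 CPM in young Treg, against 239.9 and 239 CPM in young Tconv.

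Themis (chr10:28668360-28883818, plus strand), a T cell lineage protein that tunes receptor signals, had 35.5 and 35.1 CPM in labelled Treg, against 179 and 197 CPM in labelled Tconv. Both Treg libraries were low and nearly equal, with a log2 difference of -2.41 ± 0.17 (SE) (edgeR adjusted p = 0.00315); the call was lost with the title tag term (log2 difference -2.29, edgeR adjusted p = 0.064) and without either labelled Treg library (-2.43, edgeR adjusted p = 0.0721, without 1 and -2.41, edgeR adjusted p = 0.0546, without 2). Ntrk3, encoding the neurotrophin receptor TrkC, had 1.79 and 1.09 CPM in labelled Treg, against 19.03 and 18.3 CPM in labelled Tconv, a log2 difference of -3.68 ± 0.56 (SE) (edgeR adjusted p = 0.0323). Tgfbr3, encoding the TGF-beta coreceptor betaglycan, had 17.8 and 17.6 CPM in labelled Treg, against 114 and 111 CPM in labelled Tconv, a log2 difference of -2.67 ± 0.47 (SE) (edgeR adjusted p = 0.0392). The groups did not overlap in any of the 3.

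Tmie, known from mechanotransduction in hair cells, Il1rl2, the interleukin 36 receptor, and Sema4f, a semaphorin, fell by 3.23, 2.49 and 2.01 on the log2 scale (edgeR adjusted p = 0.0265, 0.0323 and 0.0332). Other members did not pass. Pde3b, a cyclic AMP phosphodiesterase that Foxp3 represses in mice, had 37.7 and 35.1 CPM in labelled Treg, against 156 and 158 CPM in labelled Tconv (edgeR adjusted p = 0.0675). Satb1, a chromatin organiser likewise held down in Treg, had 183 and 193 CPM in labelled Treg, against 773 and 794 CPM in labelled Tconv (edgeR adjusted p = 0.113). Igfbp4, an insulin-like growth factor binding protein, had 98.6 and 69.7 CPM in labelled Treg, against 788 and 729 CPM in labelled Tconv (edgeR adjusted p = 0.275), and the sialyltransferase gene St8sia1 had 20.96 and 25.4 CPM in labelled Treg, against 164 and 163 CPM in labelled Tconv (edgeR adjusted p = 0.1). All 4 were lower in both Treg libraries. Il2 itself was near the bottom of the range, with 1.05 and 1.05 CPM in labelled Treg, against 2.34 and 2.84 CPM in labelled Tconv. Arhgap20 went against its list, with 11.8 and 16.4 CPM in labelled Treg, against 5.85 and 6.41 CPM in labelled Tconv (log2 difference 1.203, edgeR adjusted p = 0.286).

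Factors of naive and memory-forming T cells were lower in labelled Treg too. In a list of 17 naive T cell genes, 14 were tested, 13 had lower means and 3 fell, beside 1.35% of all tested genes. The median was -1.37, against -0.72 and 0 calls in the young pair. On the pan-T scale the labelled median was -0.12, with 0 called higher and 1 lower, beside 6462 and 41 of all 9495 genes. Tcf7 (chr11:52252371-52283014, minus strand), encoding TCF-1, had 212 and 247 CPM in labelled Treg, against 1666 and 1628 CPM in labelled Tconv, a log2 difference of -2.84 ± 0.52 (SE) (edgeR adjusted p = 0.0413). Lef1, its close relative, had 54.7 and 55.5 CPM in labelled Treg, against 273 and 300.3 CPM in labelled Tconv, a log2 difference of -2.38 ± 0.46 (SE) (edgeR adjusted p = 0.0461). The Treg libraries were low and close together for both, and the groups did not overlap. Tcf7 had 746 and 517 CPM in young Treg, against 2108 and 1958 CPM in young Tconv, and Lef1 had 137 and 99.01 CPM in young Treg, against 408 and 366 CPM in young Tconv. Txk, a Tec-family kinase, had 50.2 and 50.3 CPM in labelled Treg, against 168 and 165 CPM in labelled Tconv, a log2 difference of -1.73 ± 0.34 (SE) (edgeR adjusted p = 0.0488).

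T cell receptor signalling genes were mostly lower as well. Of 15 tested, 14 had lower means and 5 fell, beside 1.35% of all tested genes, with a median of -0.88. On the pan-T scale the median was 0.37, with 5 called higher and 2 called lower. Of all 9495 genes, 6462 were called higher and 41 lower on that scale, where the median was 1.26. Prkcq, protein kinase C theta, had 199.6 and 203 CPM in labelled Treg, against 557 and 570.0 CPM in labelled Tconv, a log2 difference of -1.49 ± 0.25 (SE) (edgeR adjusted p = 0.036). The groups did not overlap. Themis and Txk, given above, were also among the 5. Of the 3 pan-T genes that fell, Cd4, a marker of the sort, had 641 and 549 CPM in labelled Treg, against 1930.3 and 1933 CPM in labelled Tconv (log2 difference -1.70 ± 0.32 (SE), edgeR adjusted p = 0.0439). Thy1, encoding CD90, had 505 and 417 CPM in labelled Treg, against 1215 and 1184 CPM in labelled Tconv (log2 difference -1.38 ± 0.27 (SE), edgeR adjusted p = 0.0479). On the pan-T scale Cd40lg (-2.37) and Themis (-1.17) still stood below 0.

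Genes of activated Treg and of costimulation gave few calls. Tnfrsf8 (chr4:145267137-145315164, minus strand), encoding the TNF receptor family member CD30, had 33.5 and 19.6 CPM in labelled Treg, against 2.44 and 1.54 CPM in labelled Tconv. Both Treg libraries were the high ones, labelled Treg 1 above labelled Treg 2, with a log2 difference of 3.73 ± 0.37 (SE) (edgeR adjusted p = 0.0112), and the call held without labelled Treg 2 but not without any one of the other 3. It was also lost with the title tag term (log2 difference 3.92, edgeR adjusted p = 0.0852) and with the B cell and macrophage terms (log2 difference 3.63, edgeR adjusted p = 0.0664). It had 12.4 and 12.2 CPM in young Treg, against 0.704 and 1.05 CPM in young Tconv. Tnfrsf8 was the call among 15 tested genes of TNF receptor and NF-kappa B signalling, whose median was -0.01. None of 19 effector Treg genes was called, 14 had higher means and 7 an unadjusted p under 0.05, with a median of 0.82. Irf4, a factor of effector Treg that B and plasma cells also express, had 303 and 232 CPM in labelled Treg, against 88.6 and 94.8 CPM in labelled Tconv (edgeR adjusted p = 0.056). Il1rl1, the interleukin 33 receptor ST2, had 113 and 92.7 CPM in labelled Treg, against 30.3 and 32.2 CPM in labelled Tconv (edgeR adjusted p = 0.0613). All 12 tested suppressor molecules had higher means (median 0.82), with 0 called by edgeR and 4 at an unadjusted p under 0.05; Tgfb1, the TGF-beta 1 gene, had 247 and 268 CPM in labelled Treg, against 171 and 151 CPM in labelled Tconv (edgeR adjusted p = 0.0514).

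Of 13 tested genes of interleukin 2 and STAT5 signalling, Il2ra rose and Jak1 fell, around a median of -0.13. Jak1, the kinase shared by many cytokine receptors, had 928 and 874 CPM in labelled Treg, against 1546 and 1646 CPM in labelled Tconv, a log2 difference of -0.82 ± 0.15 (SE) (edgeR adjusted p = 0.0413), which turned to 0.42 on the pan-T scale. By edgeR 0 were called among 10 exhaustion genes (median 0.47, 0 at an unadjusted p under 0.05), 13 helper-lineage genes (median -0.23, 6), 10 homing genes (median -0.73, 4) and 8 immediate early genes (median -0.12, 0). Tbx21, the T helper 1 factor T-bet, had 18.00 and 19.2 CPM in labelled Treg, against 57.1 and 54.2 CPM in labelled Tconv (edgeR adjusted p = 0.0788). Egr1, an immediate early gene, differed between the Treg libraries, with 97.7 and 261 CPM in labelled Treg, against 430.4 and 412 CPM in labelled Tconv (edgeR adjusted p = 0.236).

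Outside the identity list, the largest rise among the genes named by the rule was that of Dnah7a. This axonemal dynein heavy chain gene, which has the near copies Dnah7b and Dnah7c in mice and may share reads with them, had 12.4 and 11.04 CPM in labelled Treg, against 0.488 and 0.771 CPM in labelled Tconv, a log2 difference of 4.21 ± 0.46 (SE) (edgeR adjusted p = 0.0125). It had 72.2 and 49.8 CPM in young Treg, against 0.986 and 1.21 CPM in young Tconv, so the Treg libraries were the high ones in both pairs. Cttn, encoding the actin-branch protein cortactin, had 21.5 and 23.05 CPM in labelled Treg, against 2.10 and 2.56 CPM in labelled Tconv, and Myo7a, an unconventional myosin gene, had 54.9 and 59.1 CPM in labelled Treg, against 8.59 and 5.98 CPM in labelled Tconv. Their log2 differences were 3.26 ± 0.57 (SE) and 2.97 ± 0.54 (SE) (edgeR adjusted p = 0.0392 and 0.0411). Psd2, a guanine exchange factor gene, had 42.2 and 26.8 CPM in labelled Treg, against 3.07 and 3.33 CPM in labelled Tconv, and Lingo4, a leucine-rich repeat protein gene, had 12.5 and 9.82 CPM in labelled Treg, against 1.95 and 1.11 CPM in labelled Tconv; they rose by 3.43 and 2.86 on the log2 scale (edgeR adjusted p = 0.0366 and 0.0441). Btnl6 and Btnl4, butyrophilin-like genes of 1 cluster on chromosome 17, had 25.95 and 32.03 CPM in labelled Treg, against 1.90 and 1.93 CPM in labelled Tconv for Btnl6 and 12.7 and 18.97 CPM in labelled Treg, against 1.90 and 2.12 CPM in labelled Tconv for Btnl4. They rose by 3.92 and 2.97 (edgeR adjusted p = 0.038 and 0.0387), and as near copies may share reads.

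Among the largest falls, Cnga1, a subunit of a cyclic nucleotide-gated channel, had 0.176 and 0.378 CPM in labelled Treg, against 7.22 and 10.4 CPM in labelled Tconv, a log2 difference of -4.98 ± 0.70 (SE) (edgeR adjusted p = 0.0323). Tdrp had 3.90 and 5.92 CPM in labelled Treg, against 106 and 102 CPM in labelled Tconv, a log2 difference of -4.40 ± 0.85 (SE) (edgeR adjusted p = 0.0469). Ggt1, a gamma-glutamyltransferase of glutathione breakdown, had 2.64 and 3.69 CPM in labelled Treg, against 51.1 and 49.5 CPM in labelled Tconv, a log2 difference of -3.99 ± 0.60 (SE) (edgeR adjusted p = 0.0323). The 3 were low in both Treg libraries, and also in young Treg, with 2.02 and 1.34 CPM of Cnga1, 20.8 and 17.3 of Tdrp and 1.18 and 2.73 of Ggt1. Als2cl, Hs3st3b1, a heparan sulfate sulfotransferase gene, Ryr3, an intracellular calcium channel gene, and Pdzd4 fell by 3.31, 3.26, 3.12 and 3.11 on the log2 scale (edgeR adjusted p = 0.0323, 0.0361, 0.0379 and 0.0137).

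Metabolic and stress lists held few calls. Pdk1, the kinase that holds back pyruvate dehydrogenase, had 100.1 and 114 CPM in labelled Treg, against 421 and 427 CPM in labelled Tconv, and 299 and 209 CPM in young Treg, against 602 and 582 CPM in young Tconv. It was low in both labelled Treg libraries, with a log2 difference of -1.99 ± 0.21 (SE) (edgeR adjusted p = 0.0118), and was the call among 15 glycolysis genes, whose median was 0.15. Of 25 antioxidant genes, 20 had higher means (median 0.72), 1 rose and 1 fell. Prdx2, a peroxiredoxin abundant in red blood cells, had 212 and 241 CPM in labelled Treg, against 129 and 126 CPM in labelled Tconv, a log2 difference of 0.83 ± 0.12 (SE) (edgeR adjusted p = 0.0323); the erythroid sums given above were higher in both Treg libraries too. Prdx6, another peroxiredoxin, had 125 and 131 CPM in labelled Treg, against 216 and 216 CPM in labelled Tconv, a log2 difference of -0.75 ± 0.12 (SE) (edgeR adjusted p = 0.0332), which turned to 0.49 on the pan-T scale. The 5 NADPH oxidase genes had higher means (median 1.45) with 0 called by edgeR and 2 at an unadjusted p under 0.05.

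Among proliferation and senescence genes edgeR called 0. Of 24 cell cycle genes 22 had higher means (median 0.82), with 4 at an unadjusted p under 0.05; Tk1, thymidine kinase, had 82.6 and 77.7 CPM in labelled Treg, against 30.5 and 28.9 CPM in labelled Tconv (edgeR adjusted p = 0.0887). The 11 genes of CDK inhibitors and p53 targets had a median of 0.21 and 0 at an unadjusted p under 0.05. Cdkn1a, encoding the inhibitor p21, had 62.3 and 46.05 CPM in labelled Treg, against 16.1 and 16.2 CPM in labelled Tconv (edgeR adjusted p = 0.225), and 1.27 and 5.71 CPM in young Treg, against 1.41 and 2.92 CPM in young Tconv. Both labelled groups were thus above the young ones, a difference that was not tested. WT aged libraries were above the young ones too, with 51.9 and 21.4 CPM in aged Treg, against 13.7 and 47.7 CPM in aged Tconv. The 8 genes of the CUL4-DCAF1 ligase had a median of -0.19; Dda1, a DDB1-associated subunit, had 81.7 and 77.6 CPM in labelled Treg, against 123 and 110.2 CPM in labelled Tconv (edgeR adjusted p = 0.0503).

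Of 61 cytosolic ribosomal protein genes 56 had lower means, with a median of -0.52 that became 0.72 on the pan-T scale, 50 at an unadjusted p under 0.05 and 1 called: Rpl35a, with 665 and 618 CPM in labelled Treg, against 1008 and 1092 CPM in labelled Tconv (edgeR adjusted p = 0.0488). The 58 oxidative phosphorylation genes had a median of 0.01 and the 29 proteasome genes of 0.08, with 0 called by edgeR in either and 8 and 1 at an unadjusted p under 0.05. The 20 interferon-induced genes had a median of -0.12, 0 calls and 5 at an unadjusted p under 0.05. Gbp3, a guanylate-binding protein gene, had 190.5 and 179.8 CPM in labelled Treg, against 56.7 and 60.9 CPM in labelled Tconv (edgeR adjusted p = 0.0574), and Ifit2 had 60.8 and 71.3 CPM in labelled Treg, against 126 and 133 CPM in labelled Tconv (edgeR adjusted p = 0.0506), so the list held genes with higher and with lower values.

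**Figure D4:**
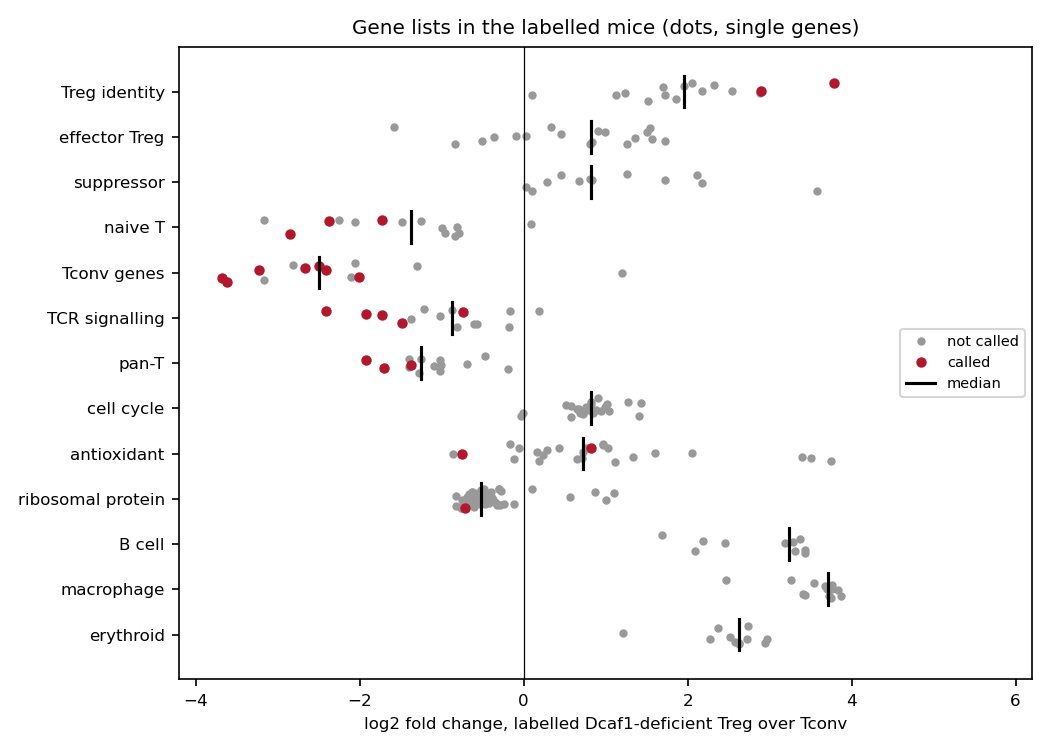
Log2 difference Treg minus Tconv in the labelled pair for every tested member of 13 of the lists (dots, red where called by edgeR; black bar, list median). The Treg identity genes lie above 0 and the pan-T genes below it, as do 12 of 13 Tconv genes; of the lists drawn, the B cell, macrophage and erythroid markers have the highest medians, with 0 called. Neutrophil markers, with a median of 3.02, are not drawn.

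The genes called in the labelled pair had the same sign in the young pair in 209 of 211 cases, and 179 of those also had a young unadjusted p under 0.05; over all tested genes 77.1% had the same sign. The 2 pairs share no library, but the gene filter and each gene's spread were estimated over all 12, young libraries included. A gene with close young libraries was thus easier to call, so the shares in this paragraph are not independent support. Both pairs called 44 genes, 20.9% of the labelled calls and 57.9% of the young calls, all in the same direction. They include Foxp3, Il2ra, Tnfrsf8, Dnah7a, Cd40lg, Themis, Tgfbr3, Ntrk3, Tmie, Il1rl2, Sema4f, Pdk1 and Prdx6. Of the 83 genes called higher in labelled Treg, 80 were above both young Tconv libraries in young Treg 1 and 83 in young Treg 2, beside 37.9% and 42.7% of all tested genes. Of the 128 called lower, 122 and 127 were below both young Tconv libraries in young Treg 1 and young Treg 2, beside 37.7% and 42.4%. For 46 of the 211 genes the gap between the pairs had an unadjusted p under 0.05, and 0 were called.

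**Figure D5:**
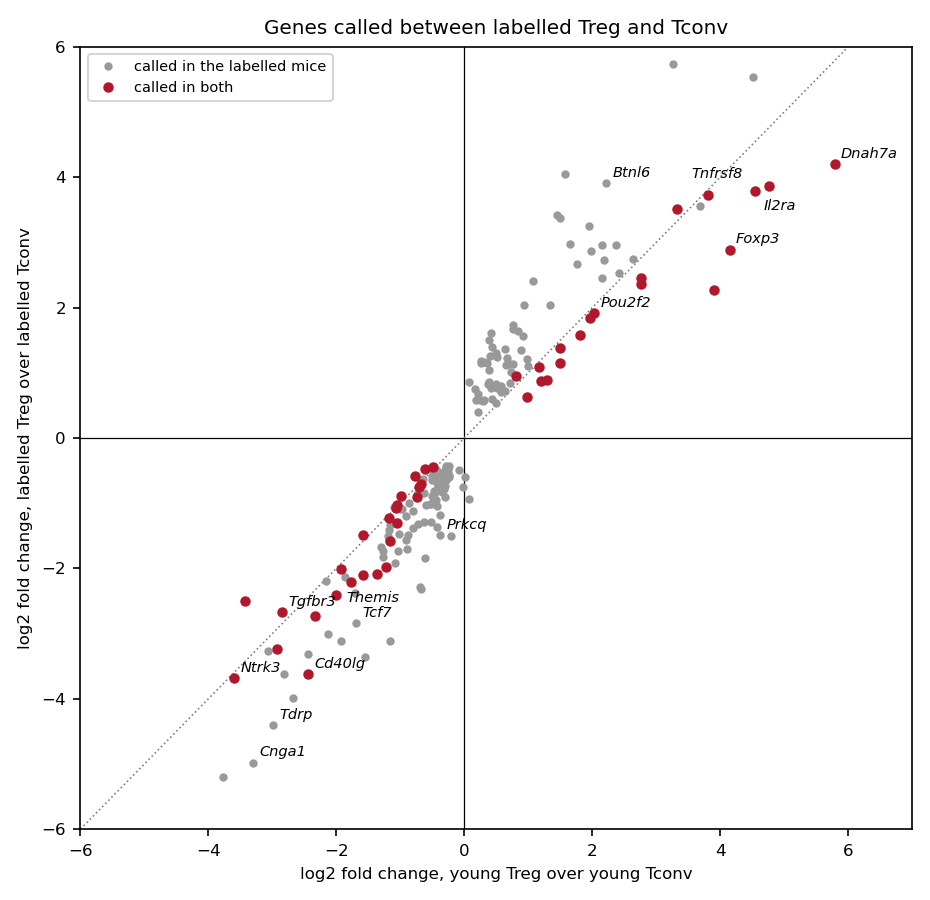
Log2 difference Treg minus Tconv in the labelled pair (vertical axis) against that in the young pair (horizontal axis) for the 211 genes called in the labelled pair, with the 44 also called in the young pair in red and equality as a dotted line. Of the 211, 209 lie at the upper right or lower left, where the signs are the same.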

How the data were processed

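Per the submitters' processing notes, reads were quantified with Salmon 0.9.1 and processed with DESeq2 on mm10; the transcript annotation is not given in the sources used here. The deposited table of estimated counts per gene was not scaled for depth. A second deposited table, scaled by the authors with DESeq2, lies on a log2 scale whose exact transform is not given in the sources used here; it served 1 alternative.

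Estimated counts were rounded; 23.5% of them were whole as deposited. edgeR 4.0.16 (R 4.3.3) kept 9495 of the table's 13404 rows with filterByExpr, scaled by TMM and fitted 6 group means to all 12 libraries, which leaves 6 residual degrees of freedom and 1 shared estimate of spread. Spread differed by group: edgeR's common dispersion was 0.00264 in labelled Tconv and 0.0261 in labelled Treg. It was 0.0431 in young Tconv, 0.233 in young Treg, 0.180 in aged Tconv and 0.275 in aged Treg. The p-values of the labelled pair therefore also carry the wider spread of the other groups. Quasi-likelihood tests were adjusted by Benjamini-Hochberg over all tested genes and called at 0.05. SE is the log2 difference divided by the square root of F, and 95% intervals use the t distribution. Alternatives used DESeq2 1.42.0 and limma 3.58.1. Scripts were tested on simulated data. Totals of 18358477 to 26852448 counts limit precision for genes at a few CPM.

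Named were every tested Treg identity gene, Vprbp, and the other lists' called members, and the 10 largest rises and falls among calls averaging 4 CPM or more whose groups did not overlap; lists without calls gave up to 2 genes with the smallest p. The members and all 33 lists were chosen with earlier results of these data known. Some genes that the rule names were tested and counted but are not reported here. Names turned into dates (18 rows) were not named. Coordinates are from GENCODE M21 and promoters from RefSeq.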

Additional observations from a re-analysis of the deposited data

Results flagged for a closer look

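Clasp1 and Eomes are given because both labelled Treg libraries lay above both labelled Tconv libraries while both young Treg libraries lay below both young Tconv libraries. Clasp1, which encodes a microtubule plus-end protein, had 35.9 and 41.5 CPM in labelled Treg, against 21.5 and 20.8 CPM in labelled Tconv (log2 difference 0.87, edgeR adjusted p = 0.0613). It had 18.9 and 22.8 CPM in young Treg, against 29.7 and 35.3 CPM in young Tconv (log2 difference -0.64, edgeR adjusted p = 0.189). The gap between the pairs was 1.51, with an edgeR adjusted p of 1 and, in DESeq2, an adjusted p of 0.00325. Eomes, a T-box factor of cytotoxic and memory T cells, had 15.4 and 20.1 CPM in labelled Treg, against 11.9 and 13.5 CPM in labelled Tconv, and 12.1 and 15.6 CPM in young Treg, against 15.9 and 16.3 CPM in young Tconv. Its gap was 0.70, with an edgeR adjusted p of 1, so the difference did not pass the test.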

How the results depend on the processing

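Precision is limited by 2 libraries a group, and by depth for genes at a few CPM, Plagl1 among them. The count of labelled calls, 211 as reported, was 2 to 3 with 1 labelled library left out, 384 with limma, 1444 with DESeq2, 2126 in a fit of 8 libraries and 4712 in a fit of 4; 6503 with pan-T scaling (6462 higher, 41 lower, 99.4% higher against 39.3%); 12 with the title tag term; and 130 at an absolute log2 difference of at least 1. Chosen after seeing the data, B cell and macrophage terms gave 18, leaving out young Treg 2 and aged Treg 1 gave 1487, and a sex term gave a similar 165. The 76 young calls became 0 to 21 with 1 library left out, 142 with limma, 654 with DESeq2, 841 with 8 libraries, 2 with 4, 166 with pan-T scaling, 167 with the title tag term, 19 with the B cell and macrophage terms and 215 without young Treg 2 and aged Treg 1. The gap between pairs had 0 calls, 0 with 1 library left out, 1 with DESeq2 and 10 without those libraries. The 2 called identity genes became 0 with 1 labelled library left out, 15 with pan-T scaling, 13 with DESeq2, 4 with limma, 13 with 8 libraries, 14 with 4, 1 with the B cell and macrophage terms and 10 without young Treg 2 and aged Treg 1. The cause of these moves was not tested. Fewer libraries leave fewer residual degrees of freedom, and the part of this was not tested either.

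The labels do not say that libraries with the same number in the titles come from one mouse, litter or batch, so the number was not taken as pairing them. Their deviations from the group means correlated at 0.04 in the labelled, 0.68 in the young and 0.27 in the aged pair, over 9495 genes, and labelled Treg 1 differs from labelled Tconv 1 in Ddx3y. With the replicate block the labelled calls were 366, the young calls 196, the gap between pairs 0 and the identity calls 6.

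Signs reversed for these log2 differences of genes named by rule. With pan-T scaling Atp5h was 0.88, Dda1 0.70, Egr1 0.023, Ifit2 0.28, Jak1 0.42, Jun 0.75, Prdx6 0.49, Rpl35a 0.53 and Vprbp 0.87. With the title tag term Camp was -2.85, Egr1 0.20, Jun 0.46 and Phlda3 -0.15. With the B cell and macrophage terms Ncr1 was -0.28, Pf4 -3.60 and Prss2 -1.38. With 1 labelled library left out, Nt5e ranged over -0.053 to 0.24 (negative without Treg 1) and Prss2 over -0.52 to 2.45 (negative without Treg 2).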

Other observations

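Single markers of the other-cell lists, given above as sums, had these values. Siglech, a surface marker of plasmacytoid dendritic cells, had 3.97 and 4.07 CPM in labelled Treg, against 217 and 223 CPM in labelled Tconv (edgeR adjusted p = 0.0521). Klrd1, a receptor chain of natural killer and CD8 T cells, had 5.77 and 10.8 CPM in labelled Treg, against 61.7 and 69.3 CPM in labelled Tconv (edgeR adjusted p = 0.112). Among neutrophil granule genes, Ltf had 50.8 and 87.2 CPM in labelled Treg, against 6.78 and 6.41 CPM in labelled Tconv and Camp had 20.1 and 39.2 CPM in labelled Treg, against 3.56 and 4.19 CPM in labelled Tconv. Sdc1, a plasma cell marker, had 23.3 and 22.5 CPM in labelled Treg, against 4.15 and 3.09 CPM in labelled Tconv. Of these, Siglech and Klrd1 were higher in labelled Tconv, and the others in labelled Treg.

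Itga4 and Itgb3, integrin chains, were lower in both labelled Treg libraries, with 446 and 605 CPM in labelled Treg, against 1220.2 and 1293 CPM in labelled Tconv for Itga4 and 76.02 and 74.2 CPM in labelled Treg, against 219 and 231 CPM in labelled Tconv for Itgb3 (edgeR adjusted p = 0.0796 and 0.102). Ermap and Rhag, red cell membrane protein genes, were highest in labelled Treg 2, with 30.7 and 81.6 CPM in labelled Treg, against 11.9 and 11.4 CPM in labelled Tconv for Ermap and 9.92 and 29.9 CPM in labelled Treg, against 3.12 and 3.33 CPM in labelled Tconv for Rhag.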
